A study of Homo sapiens with 8 samples.

Results

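The genes described here encode metalloproteinases of the MMP, ADAM and ADAMTS families, the related ADAMTSL proteins and the TIMPs that inhibit these enzymes. They were chosen by name alone, as protein-coding genes whose symbol belongs to 1 of these families, and 47 of the 18430 genes in the deposited table met this rule. These were 14 MMP, 11 ADAM, 14 ADAMTS, 4 ADAMTSL and 4 TIMP genes. The lowest count of any gene in any library of the table was 1, so a gene without counts in even 1 library is not in it. These are thus not the whole families: MMP3, MMP7, MMP8 and MMP10, for example, had no row. MMP23A, a transcribed pseudogene of near-identical sequence to MMP23B, was left out by the rule, and the values of MMP23B and of ADAMTS7, which also has pseudogene copies, are uncertain for that reason.

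RNA was sequenced from HCE-T cells, an immortalised human corneal epithelial cell line, grown for 7 days as a barrier in the upper channel of a microfluidic device and then kept for a further day in 1 of 4 conditions. In AL_DCF the channel received cycles of air and liquid (the air–liquid, or AL, stimulus) together with 50 µM of diclofenac (DCF), a non-steroidal anti-inflammatory drug. In AL the channel received the stimulus without the drug, in ST_DCF it was static with 50 µM of DCF, and in ST it was static without the drug. All groups had the same medium, with fetal bovine serum, insulin, epithelial growth factor and dimethyl sulfoxide, and each group had 2 libraries from 1 cell line, described by the study as independent samples. The study set up the stimulus as a model of dry eye and asked what it changes in these cells and whether DCF alters that.

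MMPs are zinc enzymes that cleave collagens and other matrix proteins. Some are secreted, and the membrane-type MMPs stay at the cell surface. ADAMs are transmembrane proteins, and those with an active enzyme domain release the outer part of membrane proteins such as growth factors and adhesion molecules, while ADAMTS enzymes are secreted and act on proteoglycans, procollagens and microfibrils. ADAMTSL proteins resemble ADAMTS proteins but lack the enzyme domain. TIMPs bind the active site of MMPs and, in part, of ADAMs and ADAMTSs. In the corneal epithelium these proteins are known for their roles in wound closure and basement membrane turnover, and gelatinase activity in tears is a known feature of dry eye.

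Library totals lay between 32880479 and 46369412 counts. ST_DCF replicate 1 stood apart from the other 3 static libraries: it had the highest level of them in 20 of the 47 members (42.6%), against 31.8% of all genes tested. The summed level of 8 markers of corneal and stratified epithelium, CDH1, KRT5 and KRT14 among them, was 350 and 354 CPM (counts of a gene scaled to library size, with TMM factors) in AL_DCF, 374 and 372 CPM in AL, 1340 and 1320 CPM in ST_DCF and 1240 and 1280 CPM in ST. By the test described below, 5 of these 8 fell in AL vs ST (62.5%, against 10.3% of all genes) and 1 rose (12.5%, against 7.63%). The other 3 listed epithelial markers, KRT3, KRT12 and KRT13, had no row in the deposited table. The extraction note of the labels names myoblasts. Of 6 myoblast markers DES was measured, at 0.457 to 1.36 CPM. The others, MYOD1, MYF5, MYF6, MYOG and PAX7, had no row in the deposited table. In bulk libraries fewer cells of a type and less RNA per cell cannot be told apart.

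The family was led by inhibitors and membrane-bound enzymes. By the deposited TPM, which is scaled per transcript length and allows genes to be compared, TIMP1 had a mean of 2190 TPM in ST and made up between 65.7% and 75.3% of the summed TPM of the 47 members in every library. Next in ST came ADAM15 with 164 TPM, TIMP2 with 158 TPM, MMP14 with 120 TPM and ADAM8 with 112 TPM. MMP14, a membrane-type MMP, held 35.2% to 55.1% of the summed TPM of the MMP genes. In ST, 14 members had a mean of at least 10 TPM, 20 lay between 1 and 10 TPM, and 13 lay under 1 TPM. All 47 passed the filter on low counts, and their counts per library ran from 6 to 45495, so that the spread from counting alone is wide for the lowest members, such as ADAM32 and ADAMTS17.

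**Figure D1:**
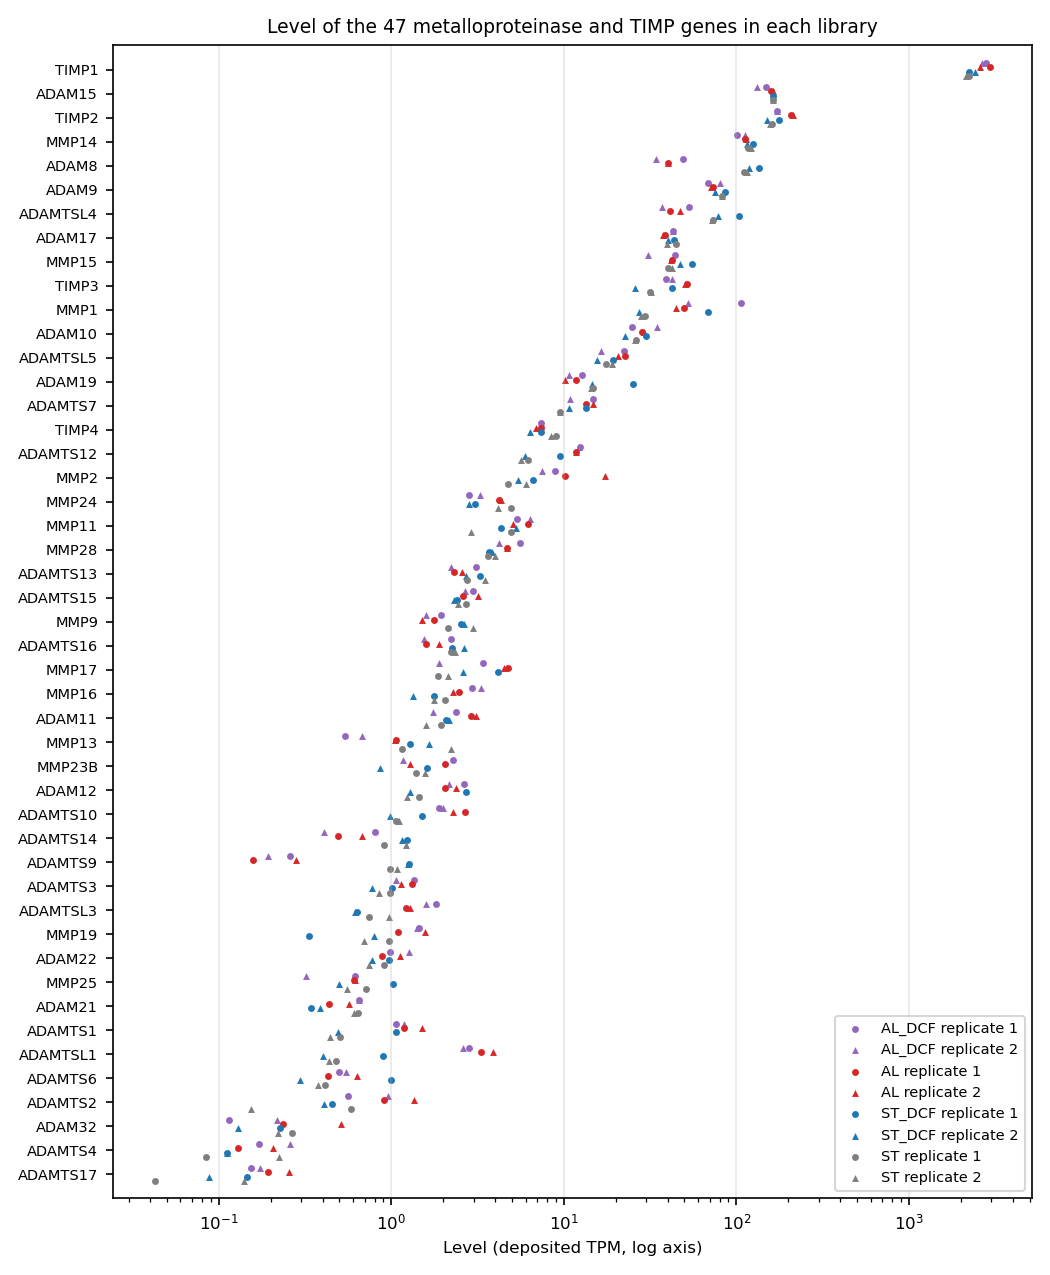
Level of each of the 47 members in each of the 8 libraries (deposited TPM, log axis), ordered by the mean in ST, with circles for replicate 1 and triangles for replicate 2 of AL_DCF, AL, ST_DCF and ST. TIMP1 lies above all others at a mean of 2190 TPM in ST, and the points of ADAM8 and ADAMTS9 form separate clusters with and without the AL stimulus.

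Promoters are shown for 4 members: ADAM8 and ADAMTSL4, which were lower under the AL stimulus in each comparison below, ADAMTS12, which was higher in each, and TIMP1, the most abundant. Each runs from 250 bases before to 50 bases after the RefSeq start of the gene (GRCh38.p14) and is written 5′ to 3′ on the strand of the gene, with matched motifs in capitals. The RefSeq table held a promoter for 29 of the 47 members.
ADAM8, chr10:133276819-133277118, minus strand: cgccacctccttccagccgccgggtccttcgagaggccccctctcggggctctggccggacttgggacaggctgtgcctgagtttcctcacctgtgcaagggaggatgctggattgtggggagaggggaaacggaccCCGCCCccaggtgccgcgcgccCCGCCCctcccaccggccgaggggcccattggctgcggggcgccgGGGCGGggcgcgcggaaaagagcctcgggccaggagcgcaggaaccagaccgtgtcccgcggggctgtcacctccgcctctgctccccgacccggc
ADAMTSL4, chr1:150549158-150549457, plus strand: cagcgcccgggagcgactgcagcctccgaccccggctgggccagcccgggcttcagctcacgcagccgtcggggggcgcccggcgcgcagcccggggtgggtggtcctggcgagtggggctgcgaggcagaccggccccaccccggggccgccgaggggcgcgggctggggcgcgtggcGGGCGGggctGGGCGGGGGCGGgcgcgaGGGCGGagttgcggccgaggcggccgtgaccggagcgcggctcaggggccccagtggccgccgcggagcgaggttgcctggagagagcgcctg
ADAMTS12, chr5:33891941-33892240, minus strand: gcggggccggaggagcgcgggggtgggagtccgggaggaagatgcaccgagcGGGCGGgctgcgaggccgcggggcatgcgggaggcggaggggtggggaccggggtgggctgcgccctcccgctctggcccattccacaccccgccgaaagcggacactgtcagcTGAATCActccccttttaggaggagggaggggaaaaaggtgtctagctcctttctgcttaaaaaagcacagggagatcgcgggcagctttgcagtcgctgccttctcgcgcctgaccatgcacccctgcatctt
TIMP1, chrX:47582186-47582485, plus strand: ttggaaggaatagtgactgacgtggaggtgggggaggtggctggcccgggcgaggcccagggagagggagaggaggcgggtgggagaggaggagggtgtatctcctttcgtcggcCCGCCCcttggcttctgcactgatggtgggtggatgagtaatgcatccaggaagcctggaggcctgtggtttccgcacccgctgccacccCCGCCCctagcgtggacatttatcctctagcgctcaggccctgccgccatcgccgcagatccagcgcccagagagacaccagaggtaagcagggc
A search of both strands for 5 motifs found 2 of them in these windows. The GC box (GGGCGG, or CCGCCC on the other strand) is there 3 times in ADAM8, 4 times in ADAMTSL4, 1 time in ADAMTS12 and 2 times in TIMP1. It is a common motif, present in 25 of the 29 member promoters and in 44.6% of all 27305 promoters of this length. The AP-1 pattern searched, TGANTCA, allowed any base at N. It is in ADAMTS12 alone of the 29, as TGAATCA beginning at base 167 of the window, and in 7.76% of all promoters. TATAAA was found in 2 member promoters and in 12.0% of all, and the ETS motif CCGGAAG in 1, that of ADAM17, and in 10.7% of all. The EGR1 motif GCGTGGGCG, whose end can overlap a GC box, was in none of the 29 and in 0.784% of all. These matches describe letters and are not measured sites.

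Under the AL stimulus without drug (AL vs ST), most of the members that passed the test rose, and the value farthest from 0 was a decrease, that of ADAMTS9. A gene was called at a Benjamini-Hochberg adjusted p under 0.05, taken over 17445 genes, in the quasi-likelihood test of edgeR, and by this 12 members rose and 3 fell. The 15 called were 31.9% of the members, against 17.9% of all genes tested. The 12 higher were 25.5% against 7.63% of all genes, and the 3 lower were 6.38% against 10.3%. The median log2 fold change was 0.33 over the members and −0.000276 over all genes. Both AL libraries lay above both ST libraries in 25 members (53.2%, against 32.3% of all genes) and below both in 14 (29.8%, against 33.2%). With DCF present in both arms (AL_DCF vs ST_DCF), 5 members rose and 6 fell, which is 23.4% against 20.7% of all genes, with 9.38% of all genes higher and 11.4% lower. Against the untreated static libraries (AL_DCF vs ST), 6 rose and 5 fell, which is 23.4% against 18.3%, with 8.49% of all genes higher and 9.83% lower. The median log2 fold changes there were 0.15 in AL_DCF vs ST_DCF and 0.16 in AL_DCF vs ST, against 0.00771 and −0.000332 over all genes. AL vs ST and AL_DCF vs ST share the ST libraries, so their values stand side by side below and are not independent of each other.

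**Figure D2:**
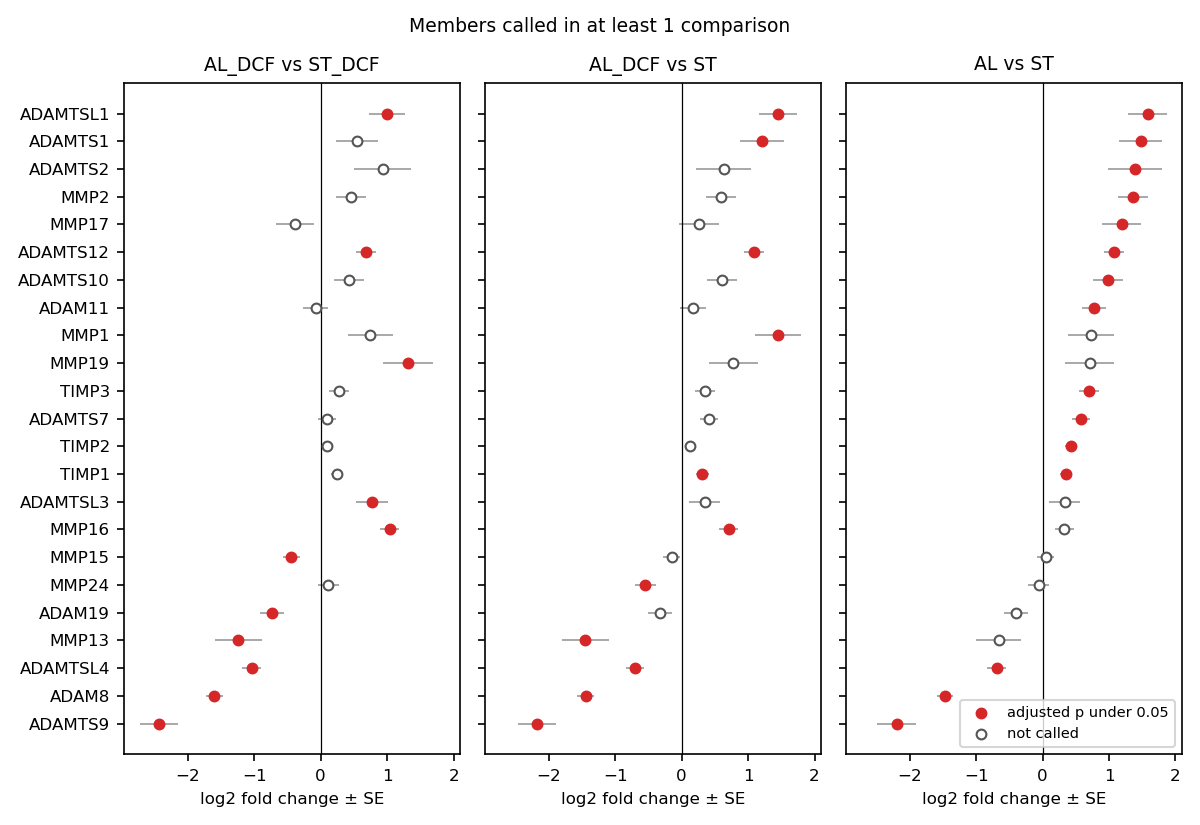
Log2 fold change ± SE of the 23 members called in at least 1 comparison, for AL_DCF vs ST_DCF, AL_DCF vs ST and AL vs ST (n = 2 libraries per group). Filled red points have an adjusted p under 0.05 and open points do not, and ADAM8, ADAMTS9, ADAMTSL4, ADAMTS12 and ADAMTSL1 are filled in all 3 panels.

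The decreases with the smallest adjusted p in each of the 3 comparisons were those of ADAM8 and ADAMTS9. ADAM8 (chr10:133262423-133276868), a transmembrane protease best known from leukocytes and inflamed epithelia, had 68.2 and 49.1 CPM in AL_DCF, 57.7 and 57.7 CPM in AL, 184 and 171 CPM in ST_DCF and 156 and 163 CPM in ST. The stimulated libraries thus lay near a common level far under all static ones. Its log2 fold change was −1.47 ± 0.13 in AL vs ST (adjusted p = 1.67e-05), −1.45 ± 0.13 in AL_DCF vs ST (1.81e-05) and −1.60 ± 0.13 in AL_DCF vs ST_DCF (7.02e-06). Here and below, ± gives an SE from the fit to all 8 libraries, with n = 2 in each group. ADAMTS9 (chr3:64515654-64688000), a proteoglycan-cleaving enzyme, had 0.896 and 0.678 CPM in AL_DCF, 0.559 and 0.999 CPM in AL, 4.14 and 4.38 CPM in ST_DCF and 3.39 and 3.75 CPM in ST. Its log2 fold change was −2.20 ± 0.29 in AL vs ST (adjusted p = 0.00038), −2.18 ± 0.29 in AL_DCF vs ST (0.000416) and −2.43 ± 0.29 in AL_DCF vs ST_DCF (0.000152). The values of ADAMTS9 were the lowest log2 fold changes of any member in each of the 3 comparisons. For both genes the call stood in all 3 comparisons whichever of the 8 libraries was left out. The summed level of 4 leukocyte markers was 71.8 and 64.8 CPM in AL_DCF and 46.0 and 44.7 CPM in AL. It was 80.0 and 76.6 CPM in ST_DCF and 62.4 and 63.6 CPM in ST. Of these 4 markers, 0 rose and 2 fell in AL vs ST (50.0% lower, against 10.3% of all genes). In AL_DCF vs AL 1 of them, CD68, rose (0.67 ± 0.08, adjusted p = 0.00672) and 0 fell. PTPRC and CD3E, defining markers of leukocytes, had no row in the deposited table. The part of leukocyte markers in the decrease of ADAM8 was not tested.

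ADAMTSL4 and ADAMTSL1, proteins without the enzyme domain, moved in opposite directions. ADAMTSL4 (chr1:150549408-150560937), a fibrillin-binding protein whose loss displaces the lens of the eye, had 92.6 and 67.1 CPM in AL_DCF, 76.6 and 84.4 CPM in AL, 182 and 146 CPM in ST_DCF and 132 and 128 CPM in ST. It fell in AL vs ST (−0.69 ± 0.14, adjusted p = 0.00553), in AL_DCF vs ST (−0.70 ± 0.14, 0.00516) and in AL_DCF vs ST_DCF (−1.04 ± 0.14, 0.000363). The call in AL vs ST ended without AL replicate 1 (adjusted p = 0.0648). ADAMTSL1 (chr9:17906633-18910950), a secreted matrix protein, had 4.57 and 3.98 CPM in AL_DCF, 4.65 and 4.73 CPM in AL, 2.84 and 1.41 CPM in ST_DCF and 1.61 and 1.52 CPM in ST. Every stimulated library was above every static one, and ST_DCF replicate 1 lay between them and the other static libraries. It rose in AL vs ST (1.58 ± 0.29, adjusted p = 0.0029), in AL_DCF vs ST (1.45 ± 0.29, 0.00501) and in AL_DCF vs ST_DCF (1.00 ± 0.28, 0.0252). The call in AL_DCF vs ST ended without ST replicate 2 (adjusted p = 0.0505), and that in AL_DCF vs ST_DCF without AL_DCF replicate 1 (0.0847), AL_DCF replicate 2 (0.0539) or ST_DCF replicate 2 (0.0991). ADAMTSL3 had 3.45 and 3.04 CPM in AL_DCF, against 2.01 and 1.79 CPM in ST_DCF, and rose in that comparison (0.77 ± 0.24, adjusted p = 0.0388). This call was lost without any 1 of 6 libraries: AL_DCF replicate 1 (0.124), AL_DCF replicate 2 (0.0717), ST_DCF replicate 1 (0.0812), ST_DCF replicate 2 (0.121), ST replicate 1 (0.059) or ST replicate 2 (0.0581). ADAMTSL5 was not called in any comparison.

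Apart from ADAMTS9, the called ADAMTS genes rose. ADAMTS12 (chr5:33523535-33891990), which cleaves cartilage oligomeric matrix protein, had 43.7 and 42.8 CPM in AL_DCF, 43.7 and 41.8 CPM in AL, 32.3 and 21.5 CPM in ST_DCF and 20.2 and 20.5 CPM in ST. It rose in all 3 comparisons, by 1.07 ± 0.15 in AL vs ST (adjusted p = 0.000503), 1.09 ± 0.15 in AL_DCF vs ST (0.000492) and 0.68 ± 0.15 in AL_DCF vs ST_DCF (0.00726), and no left-out library ended these calls. ADAMTS7, the closest relative of ADAMTS12, had 33.1 and 36.2 CPM in AL, against 23.1 and 23.1 CPM in ST (0.58 ± 0.14, adjusted p = 0.0115). The call did not hold without AL replicate 2 (0.098), ST replicate 1 (0.0746) or ST replicate 2 (0.0771).

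ADAMTS1 (chr21:26835755-26845409), which cleaves the proteoglycans aggrecan and versican, had 2.40 and 2.74 CPM in AL_DCF, 2.70 and 3.47 CPM in AL, 2.34 and 1.15 CPM in ST_DCF and 1.18 and 1.04 CPM in ST. It rose in AL vs ST (1.48 ± 0.33, adjusted p = 0.00928) and in AL_DCF vs ST (1.21 ± 0.33, 0.0259), while in AL_DCF vs ST_DCF it was at 0.55 ± 0.31 (0.251), with ST_DCF replicate 1 near the level of AL_DCF. The call in AL vs ST ended without AL replicate 2 (0.0791), ST replicate 1 (0.0522) or ST replicate 2 (0.0779), and the one in AL_DCF vs ST without AL_DCF replicate 2 (0.093), ST replicate 1 (0.0991) or ST replicate 2 (0.156). ADAMTS10, which acts on fibrillin microfibrils, had 4.20 and 3.85 CPM in AL, against 2.04 and 2.01 CPM in ST (0.99 ± 0.23, adjusted p = 0.0104). Its call ended without AL replicate 1 (0.0763), ST replicate 1 (0.0719) or ST replicate 2 (0.0767). Of the 3 procollagen N-proteinases, ADAMTS2 rose, with 1.25 and 2.33 CPM in AL, against 0.862 and 0.488 CPM in ST (1.40 ± 0.41, adjusted p = 0.0344). This call was lost without AL replicate 2 (0.292), ST replicate 1 (0.0559) or ST replicate 2 (0.235). The other two, ADAMTS3 (0.42 ± 0.22, adjusted p = 0.229) and ADAMTS14 (−0.84 ± 0.32, 0.0939), were not called. The other ADAMTS members, ADAMTS4, ADAMTS6, ADAMTS13, ADAMTS15, ADAMTS16 and ADAMTS17, passed the test in none of the comparisons.

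**Figure D3:**
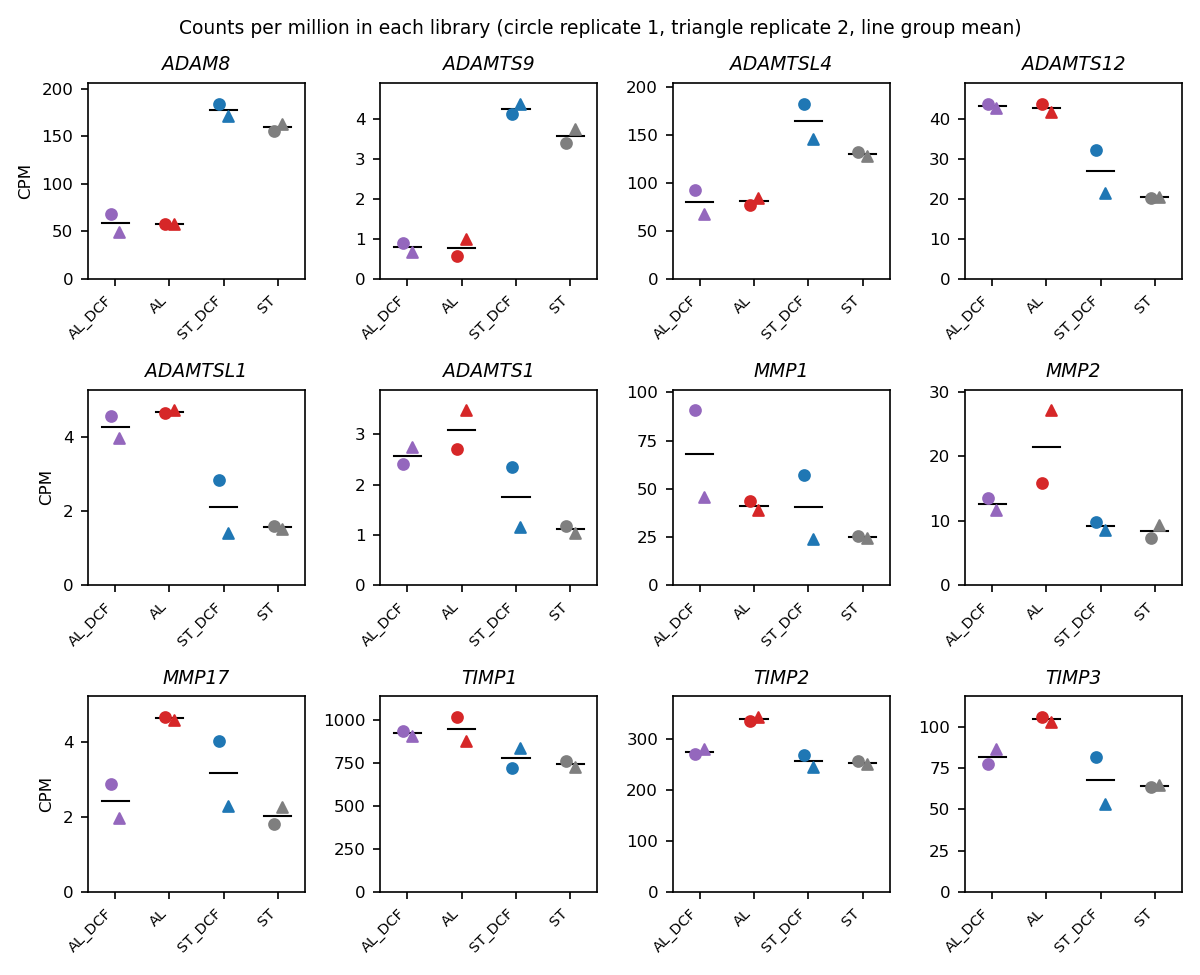
CPM of 12 members in each library, with the groups in the order AL_DCF, AL, ST_DCF and ST, circles for replicate 1, triangles for replicate 2 and a line at the group mean (axes start at 0). ADAM8 is at 57.7 and 57.7 CPM in AL, against 156 and 163 CPM in ST. For MMP1, replicate 1 of AL_DCF and replicate 1 of ST_DCF lie above their partners.

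Among the collagenases, which open the triple helix of fibrillar collagen, MMP1 rose and MMP13 fell when AL_DCF was set against ST. MMP1 (chr11:102789919-102798160) had 90.6 and 45.5 CPM in AL_DCF, 43.5 and 39.0 CPM in AL, 56.9 and 24.0 CPM in ST_DCF and 25.4 and 24.5 CPM in ST. Replicate 1 was far above replicate 2 in both DCF groups, while the replicates of AL and of ST lay close together. The log2 fold change was 1.45 ± 0.35 in AL_DCF vs ST (adjusted p = 0.0141), 0.73 ± 0.35 in AL vs ST (0.18) and 0.75 ± 0.34 in AL_DCF vs ST_DCF (0.146). The AL_DCF vs ST call ended without AL_DCF replicate 1 (0.106, at a log2 fold change of 0.87), ST replicate 1 (0.0745) or ST replicate 2 (0.096). In AL vs ST, a fit to those 4 libraries alone, which leaves out the spread of the DCF groups, gave an adjusted p of 8.04e-06. MMP13 (chr11:102942995-102955732) had 0.650 and 0.832 CPM in AL_DCF, 1.30 and 1.26 CPM in AL, 1.48 and 2.03 CPM in ST_DCF and 1.38 and 2.68 CPM in ST. It fell in AL_DCF vs ST (−1.45 ± 0.36, adjusted p = 0.0162) and in AL_DCF vs ST_DCF (−1.24 ± 0.36, 0.0305), and it was at −0.66 ± 0.34 in AL vs ST (0.212). The first call ended without AL_DCF replicate 1 (0.0802) or ST replicate 2 (0.206), and the second without AL_DCF replicate 1 (0.118), AL_DCF replicate 2 (0.0709) or ST_DCF replicate 2 (0.134).

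The gelatinases, which cleave denatured collagen and basement membrane collagen, were represented by MMP2, which rose in AL vs ST, and MMP9, which did not pass the test. MMP2 (chr16:55478830-55506691) had 13.6 and 11.6 CPM in AL_DCF, 15.8 and 27.1 CPM in AL, 9.79 and 8.56 CPM in ST_DCF and 7.35 and 9.33 CPM in ST, so that AL replicate 2 was the highest library by a wide margin. It rose in AL vs ST (1.36 ± 0.23, adjusted p = 0.00164). The call stood without each library, with a log2 fold change of 0.92 without AL replicate 2 and 1.70 without AL replicate 1. With DCF the values were 0.59 ± 0.23 in AL_DCF vs ST (0.0929) and 0.45 ± 0.22 in AL_DCF vs ST_DCF (0.181). MMP9 had 1.99 and 1.66 CPM in AL_DCF, 1.86 and 1.57 CPM in AL, 2.50 and 2.79 CPM in ST_DCF and 2.18 and 3.08 CPM in ST. Every stimulated library was below every static one, yet the log2 fold change of −0.62 ± 0.26 in AL vs ST did not pass the test (0.125). MMP9 had 66 to 101 counts and overlaps SLC12A5-AS1 on the other strand, which had 17 to 49. Whether the counting used strand is not given in the sources used here, so the value of MMP9 is uncertain.

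AL replicate 2 also held more RNA of fibroblast and mural markers. The summed level of 7 of these markers, ACTA2 left out, was 30.5 and 28.2 CPM in AL_DCF, 34.7 and 84.9 CPM in AL, 30.1 and 25.9 CPM in ST_DCF and 22.7 and 27.5 CPM in ST. With ACTA2 the 8 markers summed to 63.5 and 73.5 CPM in AL_DCF and 70.1 and 123 CPM in AL. The static sums were 62.5 and 71.5 CPM in ST_DCF and 69.3 and 72.7 CPM in ST. On this full list AL replicate 1 lay between the ST libraries. In AL vs ST 7 of the 8 had a positive log2 fold change, and ACTA2 a negative one (−0.33). By the test 4 of the 8 rose there (50.0%, against 7.63% of all genes). In AL_DCF vs ST and in AL_DCF vs ST_DCF 1 rose (12.5%, against 8.49% and 9.38%). COL3A1 had 147 counts in AL replicate 1 and 912 in AL replicate 2, and COL1A2 had 15 and 255, while DCN and LUM had no row in the deposited table. MMP2 and ADAMTS2, genes that fibroblasts also express, were both highest in AL replicate 2, and the part of these markers in the 2 results was not tested. AL replicate 2 was the highest library for 11 of the 47 members (23.4%, against 12.5% of all genes). AL replicate 1 was the highest for 9 (19.1%, against 9.0%), TIMP1, TIMP3 and MMP17 among them.

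Of the membrane-type MMPs, MMP17 rose in AL vs ST and MMP16 in both comparisons of AL_DCF with static libraries. MMP17 (chr12:131828393-131851771), which is held at the surface by a lipid anchor, had 2.89 and 1.97 CPM in AL_DCF, 4.67 and 4.59 CPM in AL, 4.04 and 2.29 CPM in ST_DCF and 1.81 and 2.26 CPM in ST. It rose in AL vs ST (1.19 ± 0.29, adjusted p = 0.0152), and was at −0.39 ± 0.29 in AL_DCF vs ST_DCF (0.382). The call did not hold without AL replicate 1 (0.0767), AL replicate 2 (0.0734), ST replicate 1 (0.126) or ST replicate 2 (0.0574). MMP16, a transmembrane enzyme, had 14.8 and 16.9 CPM in AL_DCF, 12.7 and 11.6 CPM in AL, 8.54 and 6.88 CPM in ST_DCF and 10.4 and 8.96 CPM in ST, with both AL_DCF libraries above all others. It rose in AL_DCF vs ST_DCF (1.04 ± 0.15, adjusted p = 0.000557) and in AL_DCF vs ST (0.71 ± 0.15, 0.00654), and was at 0.33 ± 0.15 in AL vs ST (0.155). The AL_DCF vs ST call ended without ST replicate 2 (0.0862).

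MMP14, the MMP with the highest TPM in ST and an activator of the MMP2 proenzyme, had 162 and 183 CPM in AL_DCF, 183 and 187 CPM in AL, 195 and 192 CPM in ST_DCF and 191 and 199 CPM in ST. Its log2 fold change was −0.07 ± 0.08 in AL vs ST (adjusted p = 0.576) and −0.17 ± 0.08 in AL_DCF vs ST (0.165). MMP15, a transmembrane relative, fell in AL_DCF vs ST_DCF, with 77.8 and 54.9 CPM in AL_DCF, against 94.7 and 85.4 CPM in ST_DCF (−0.44 ± 0.13, adjusted p = 0.0337). This small change was lost without AL_DCF replicate 2 (0.168), AL replicate 1 (0.0555), AL replicate 2 (0.0558), ST_DCF replicate 1 (0.149) or ST replicate 2 (0.0541). MMP24 had 5.40 and 6.35 CPM in AL_DCF, 8.18 and 8.32 CPM in AL, 5.39 and 5.44 CPM in ST_DCF and 9.51 and 7.65 CPM in ST. The 4 DCF libraries were thus below the 4 without DCF, and it fell in AL_DCF vs ST (−0.55 ± 0.16, adjusted p = 0.0362), while the difference was −0.66 ± 0.16 in ST_DCF vs ST (0.324) and −0.49 ± 0.16 in AL_DCF vs AL (0.237). The call ended without AL_DCF replicate 1 (0.152), AL replicate 1 (0.0655), AL replicate 2 (0.0662), ST replicate 1 (0.295) or ST replicate 2 (0.0569). MMP24 overlaps MMP24OS on the other strand, which had 2111 to 3066 counts, and whether the counting used strand is not given in the sources used here, so the value of MMP24 is uncertain. MMP19, a secreted MMP, had 2.06 and 1.99 CPM in AL_DCF, against 0.469 and 1.18 CPM in ST_DCF, and rose there (1.31 ± 0.38, adjusted p = 0.0302). It overlaps TMEM198B on the other strand, which had 369 to 539 counts, so its value is uncertain in the same way. Its call ended without AL_DCF replicate 1 (0.0736), AL_DCF replicate 2 (0.0836) or ST_DCF replicate 1 (0.167). MMP11, MMP23B, MMP25 and MMP28 were called in no comparison.

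The main sheddases of the ADAM family did not pass the test. ADAM17, which releases TNF and ligands of the EGF receptor, had 81.7 and 83.4 CPM in AL_DCF, 75.4 and 73.3 CPM in AL, 80.4 and 79.0 CPM in ST_DCF and 86.2 and 76.4 CPM in ST. ADAM10, which cleaves Notch and cadherins, had 119 and 145 CPM in AL_DCF, 135 and 133 CPM in AL, 127 and 112 CPM in ST_DCF and 125 and 124 CPM in ST. The log2 fold changes in AL vs ST were −0.13 ± 0.08 for ADAM17 (adjusted p = 0.307) and 0.10 ± 0.10 for ADAM10 (0.524), both small beside that of ADAM8. ADAM9 and ADAM15, also widely expressed, were called in no comparison either, and neither were ADAM12, ADAM21, ADAM22 and ADAM32. ADAM11, which lacks a working active site, had 6.39 and 6.73 CPM in AL, against 4.17 and 3.51 CPM in ST, and rose (0.77 ± 0.19, adjusted p = 0.0141). This call was lost without AL replicate 1 (0.0665), AL replicate 2 (0.0964) or ST replicate 2 (0.134). ADAM19 had 35.8 and 30.6 CPM in AL_DCF, against 68.3 and 41.9 CPM in ST_DCF, and fell (−0.73 ± 0.18, adjusted p = 0.0145), a call that ended without AL_DCF replicate 2 (0.0928) or ST_DCF replicate 1 (0.103). With the decrease of ADAM8, the summed TPM of the 11 ADAM genes was 352 and 341 in AL_DCF, 357 and 358 in AL, 490 and 439 in ST_DCF and 446 and 445 in ST.

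Of the inhibitors, 3 of 4 TIMPs rose in AL vs ST (75.0%, against 7.63% of all genes), by less than 2-fold. TIMP1 (chrX:47582436-47586789) had 939 and 911 CPM in AL_DCF, 1020 and 881 CPM in AL, 721 and 838 CPM in ST_DCF and 761 and 728 CPM in ST, so that every stimulated library was above every static one. It rose in AL vs ST (0.35 ± 0.09, adjusted p = 0.0253) and in AL_DCF vs ST (0.31 ± 0.09, 0.0408), and was at 0.25 ± 0.09 in AL_DCF vs ST_DCF (0.0896). The AL vs ST call ended without AL replicate 1 (0.249), ST replicate 1 (0.12) or ST replicate 2 (0.188). The AL_DCF vs ST call ended without AL_DCF replicate 1 (0.113), AL_DCF replicate 2 (0.0747), AL replicate 1 (0.0532), AL replicate 2 (0.0539), ST replicate 1 (0.155) or ST replicate 2 (0.25).

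TIMP2 (chr17:78852977-78925387), which links the MMP2 proenzyme to MMP14, had 272 and 280 CPM in AL_DCF, 336 and 344 CPM in AL, 270 and 245 CPM in ST_DCF and 257 and 251 CPM in ST. The AL libraries stood above the other 6, and it rose in AL vs ST (0.42 ± 0.08, adjusted p = 0.00304), a call lost without ST replicate 2 (0.0526). TIMP3 (chr22:32801705-32863041), a matrix-bound inhibitor that also acts on ADAM17, had 77.7 and 86.3 CPM in AL_DCF, 106 and 103 CPM in AL, 82.0 and 53.1 CPM in ST_DCF and 63.5 and 64.8 CPM in ST. It rose in AL vs ST (0.70 ± 0.15, adjusted p = 0.00783), and the call ended without AL replicate 1 (0.0534), ST replicate 1 (0.0612) or ST replicate 2 (0.0547). In AL_DCF vs ST, TIMP2 was at 0.12 ± 0.08 (0.311) and TIMP3 at 0.35 ± 0.15 (0.131). TIMP4, with 3.91 and 3.64 CPM in AL, against 4.77 and 4.45 CPM in ST, was not called (−0.29 ± 0.18, adjusted p = 0.301). TIMP1, TIMP3 and TIMP4 each lie inside a synapsin gene on the opposite strand, SYN1 with 154 to 416 counts, SYN3 with 9 to 53 and SYN2 with 6 to 17. If strand was not used in counting, the reads of such a pair cannot be told apart.

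Other alternatives ended some of these calls as well. On log2(FPKM + 1) values limma did not call ADAMTS7 and TIMP1 in AL vs ST, ADAMTS1, MMP1, MMP13 and TIMP1 in AL_DCF vs ST, or ADAM19, MMP13 and MMP15 in AL_DCF vs ST_DCF. With the compared libraries alone MMP24 in AL_DCF vs ST and ADAMTSL1, ADAMTSL3, MMP15 and MMP19 in AL_DCF vs ST_DCF were not called. Without the expression filter the same held for MMP24 and TIMP1 in AL_DCF vs ST and for ADAMTSL3 and MMP15 in AL_DCF vs ST_DCF.

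DCF by itself was followed by no called change in the family. In ST_DCF vs ST, 0 of 47 members passed, against 0.00573% of all genes (1 gene). By edgeR's quasi-likelihood test 7 members had an unadjusted p under 0.05 (10.0% of all genes did), the lowest adjusted p was 0.324 (MMP24), and DESeq2 called 0. Without ST_DCF replicate 2, which leaves the library that stood apart as the only one of its group, ADAM12, ADAM19 and ADAMTS12 were called higher. In AL_DCF vs AL, 0 of 47 passed, against 0.355% of all genes, 8 had an unadjusted p under 0.05 (12.6% of all genes did), and the lowest adjusted p was 0.153, for TIMP2 (−0.30 ± 0.08). MMP2 in that comparison was at −0.77 ± 0.22 (0.187) and MMP17 at −0.93 ± 0.28 (0.206), and every AL_DCF library was below every AL library for these 3 genes. DESeq2 called MMP2 and TIMP2 lower. A p that misses the threshold with 2 libraries a group does not show that the levels were alike.

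The effect of the stimulus was then read without and with DCF from separate libraries, AL vs ST and AL_DCF vs ST_DCF. Of the 15 members called in AL vs ST, 13 had the same sign with DCF (86.7%, against 93.5% of the genes called among all), and the 2 that did not were MMP17 and ADAM11. Of the 3 that fell, 0 had a less negative or a positive value with DCF, against 1093 of the 1793 among all genes that fell, while all 12 that rose had a smaller value with DCF, against 75.6% of all genes that rose. These genes were picked for a high value in AL vs ST, so the counts are a description. Over the 47 members Pearson's r between the log2 fold changes was 0.796 and Spearman's rho 0.698, against 0.616 and 0.56 over all 17445 genes. The points are genes of the same libraries and not independent replicates. The test of the difference itself, the interaction of the stimulus with DCF, called 0 of 47 members, against 0.0344% of all genes, by edgeR's quasi-likelihood test. There, 8 members had an unadjusted p under 0.05 (11.3% of all genes did), DESeq2 called 0, and the lowest adjusted p was that of MMP17 (−1.58 ± 0.41, 0.24). Without ST_DCF replicate 2 the interaction was called lower for ADAMTS12, MMP17 and TIMP3, and without AL_DCF replicate 1 for MMP15.

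**Figure D4:**
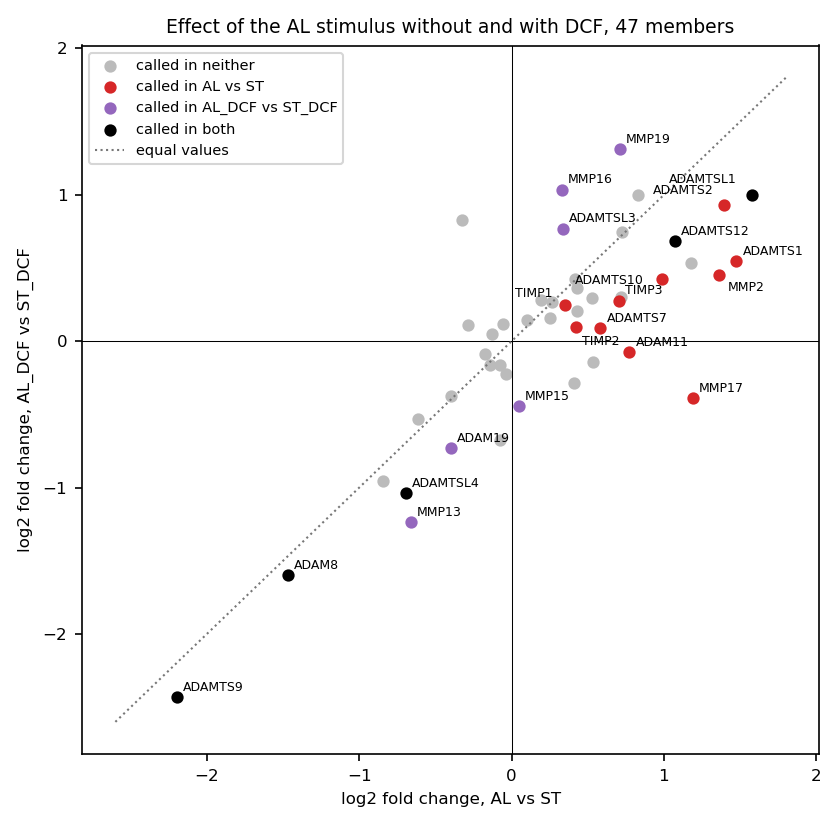
Log2 fold change of the 47 members in AL vs ST (horizontal axis) and in AL_DCF vs ST_DCF (vertical axis), coloured by the comparison in which they were called, with a dotted line of equal values. ADAM8 and ADAMTS9 lie at the lower left near the line, MMP16 and MMP19 above it, and MMP17 has opposite signs.

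Lists of genes that regulate these enzymes or are cut by them were read beside the members. Over all genes tested, 7.63% rose and 10.3% fell in AL vs ST, with a median log2 fold change of −0.000276. Of 18 inhibitors, activators and partners tested, 3 rose (16.7%) and 5 fell (27.8%), with a median of −0.08. Those that fell included LCN2, which binds MMP9 (−3.40, adjusted p = 4.76e-05), the urokinase receptor PLAUR (−0.90, 2.53e-05), its ligand PLAU, which leads to plasmin and so to the activation of MMP proenzymes (−0.68, 0.000853), and the protease inhibitor TFPI2 (−0.81, 4.42e-05). Of the 9 maturation partners of ADAM10 and ADAM17, 0 rose and 3 fell in AL vs ST (33.3%, against 10.3% of all genes, median −0.20), while ADAM10 and ADAM17 themselves were not called. These were RHBDF2, which carries ADAM17 to the surface (−0.57, adjusted p = 0.00135), and the tetraspanins of ADAM10, TSPAN14 (−0.45, 0.00533) and TSPAN15 (−0.53, 0.00809). In AL_DCF vs ST_DCF, 5 of the 9 fell (55.6%, against 11.4% of all genes). Of 5 other enzymes of the same superfamily, PAPPA2, which cleaves insulin-like growth factor binding proteins (−2.02, 7.34e-05), and BMP1, a procollagen C-proteinase (−0.26, 0.0459), fell in AL vs ST (40.0%, against 10.3% of all genes).

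Of 25 membrane proteins known to be shed by ADAMs, 2 rose and 12 fell in AL vs ST (8.0% higher, against 7.63% of all genes, and 48.0% lower, against 10.3%, median −0.46), and 1 rose and 12 fell in AL_DCF vs ST_DCF (48.0% lower, against 11.4%). The decreases with the smallest adjusted p were those of CDH1, or E-cadherin, cut by ADAM10 (−2.08, 1.83e-07), the EGF receptor ligand TGFA (−1.02, 5.45e-06), the chemokine CXCL16 (−1.01, 1.83e-05) and the EGF receptor ligand AREG (−0.99, 0.000124). CDH1 is also 1 of the epithelial markers whose sum was lower in the stimulated libraries, and the part of that in these values was not tested. Of 19 matrix substrates, 7 rose (36.8%, against 7.63% of all genes) and 4 fell (21.1%, against 10.3%) in AL vs ST, with a median of 0.23. Basement membrane collagens COL4A1 (0.95, 4.89e-05) and COL4A2 (0.82, 5.48e-05) rose, while the laminin chain LAMB3 (−1.34, 3.57e-05) fell. COL3A1 and COL1A2, high in AL replicate 2, are among the 7. Of 19 transcription factors known to act on MMP promoters, FOS (2.57, 2.53e-06), EGR1 (2.10, 2.12e-07) and JUN (0.67, 0.000551) rose and RUNX1 (−0.45, 0.00709) fell. These 4 are 21.1% of the list, against 17.9% of all genes, and in AL_DCF vs ST_DCF 4 rose and 1 fell, which is 26.3%, against 20.7%. Both shares, taken over the 2 directions together, lie near those of all genes. By direction, 15.8% of the list rose in AL vs ST, against 7.63% of all genes, and 5.26% fell, against 10.3%. In AL_DCF vs ST_DCF, 21.1% rose, against 9.38% of all genes, and 5.26% fell, against 11.4%.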

How the data were processed

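Libraries came from a stranded mRNA kit. According to the submitters' processing notes, reads were trimmed with Trimmomatic 0.38, aligned to GRCh38 with HISAT2 2.1.0 and assembled with StringTie 2.1.3b. Whether the counting used strand is not given in the sources used here. The deposited table holds the authors' read count of each gene without normalization. It also holds FPKM values, which the authors scaled to transcript length and mapped reads, and TPM values, which the authors scaled to the same total in each library. The log2 values deposited by the authors, and the columns of their own fold changes and p-values, were not used.

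Counts were analysed with edgeR 4.0.16 (R 4.3.3). Genes were filtered with filterByExpr by group, TMM factors were computed, and 1 model of 4 group means was fitted to all 8 libraries. It had no block for the replicate number, because the labels do not say that equal numbers share a device or day. As a check over all genes tested, deviations of equal numbers from their group means had correlations from −0.102 to 0.0985. The model left 4 residual degrees of freedom, and the biological coefficient of variation was 9.48%. Adjusted p-values are those of the quasi-likelihood test of edgeR, adjusted over 17445 genes by the method of Benjamini and Hochberg, unless another tool is named. The SE of a log2 fold change is its absolute value divided by the square root of the F statistic of that test. It thus draws on the spread in all 4 groups and not on the compared libraries alone. With 2 libraries a group, an exact permutation test of 1 gene cannot go below p = 0.333. No pair of replicates was a repeat of 1 library. The mean chi-square per gene between replicates was 25.6 in AL_DCF, 9.43 in AL, 25.6 in ST_DCF and 5.66 in ST, so the replicates of both DCF groups lay farthest apart.

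Named genes were every member called in any of 6 comparisons, MMP1, MMP2, MMP9, MMP17 and the TIMPs, and up to 4 called genes per related list with the smallest adjusted p in AL vs ST. A gene that this rule would name is not reported here. Members and lists were chosen with earlier results of these data known. Positions and promoters are those of RefSeq (GRCh38.p14), in which all 47 members were found. Alternatives were DESeq2 1.42.0, RLE factors, no expression filter, a fit to the 4 libraries compared, the replicate block, edgeR's exact test with a fold of 2 at an unadjusted p under 0.05, limma 3.58.1 on log2(FPKM + 1), and leaving out each library in turn. The fits were tested on simulated data.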

Additional observations from a re-analysis of the deposited data

How the results depend on the processing

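The number of members called in AL vs ST, 15, was 16 by DESeq2, 15 with RLE factors and 15 without the expression filter, with all 15 genes among them in each. A fit to the compared libraries alone, which leaves out the spread of the DCF groups, added ADAM9, ADAM12, ADAM19, ADAMTS14, ADAMTSL5 and MMP1. The number was then 21. It was 9 by edgeR's exact test at a fold of 2, which leaves out members that moved by less, and it ran from 7 to 17 over the fits that left out 1 library. Over such fits the count ran from 4 (without ST replicate 2) to 16 in AL_DCF vs ST, from 0 to 3 in ST_DCF vs ST, from 6 to 11 in AL_DCF vs ST_DCF and from 0 to 3 for the interaction, and it was 0 in each for AL_DCF vs AL. In these fits the remaining library of a group is assumed to vary like the other groups. For AL_DCF vs AL, DESeq2 called 2. For AL_DCF vs ST the count of 11 was 15 by DESeq2, 13 with the compared libraries alone and 8 by the exact test. ADAM12 and MMP2 were added by DESeq2 and with the compared libraries alone. For AL_DCF vs ST_DCF the count of 11 was 13 by DESeq2, 7 with the compared libraries alone and 6 by the exact test. With the replicate number as a block, 15, 10 and 12 members were called in AL vs ST, AL_DCF vs ST and AL_DCF vs ST_DCF, and 0 in the other comparisons. The block ended the calls of TIMP1 (adjusted p = 0.0515) and MMP24 in AL_DCF vs ST and added ADAM12. Of the values of single genes under alternatives, 787 kept their direction and side of the threshold, 106 were no longer past it, 19 came past it and 3 changed sign. These were log2 fold changes that had not been called: MMP15 in AL_DCF vs ST (−0.42 to 0.078 over the left-out libraries, above 0 without AL_DCF replicate 2), MMP17 in AL_DCF vs ST (−0.044 to 0.51, below 0 without AL_DCF replicate 1) and MMP24 in AL vs ST (−0.20 to 0.11, above 0 without ST replicate 1). Depth limits the lowest members, with as few as 6 counts in a library.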
